A study of Mus musculus with 6 samples.

Results

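Described here are 10 genes of heme and iron handling in mouse spinal cord microglia: Hebp1, Hmox1, Blvrb, Fth1, Ftl1, Slc40a1, Tfrc, Slc11a1, Slc11a2 and Hfe. They were taken by symbol from a table of 55401 genes, and all 10 had enough counts to be among the 16248 genes tested. Hebp1 was selected on its small p-value in the genotype contrast of these same libraries, and the other 9 were listed with it as genes of the same biology. The genotype differences of the members are therefore descriptions and support no test.

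Microglia, which are macrophages resident in the central nervous system, were captured through CD11b, a surface integrin of myeloid cells, from untreated mice aged 7 months. The first group was non-transgenic (NTg, C57BL/6), and the second was a heterozygous double mutant (ATXN2-Q33;TDP-43) with a knock-in of human ATXN2, carrying a lengthened glutamine repeat, and human TDP-43. The promoter behind human TDP-43 is not given in the sources used here. Each of the 3 libraries per group pooled the microglia of 3 spinal cords, 9 animals per group, so the replicates are separate pools. Numbers in the sample titles name the libraries: 7, 9 and 11 for NTg, and 8, 10 and 12 for the double mutants. Values below follow that order within each group.

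Macrophages take in heme from engulfed red cells and debris. Heme oxygenase opens the heme ring and frees its iron, and biliverdin reductases act on the pigment that remains. The freed iron is stored inside ferritin shells or leaves the cell through ferroportin, while new iron enters bound to transferrin and crosses the endosomal membrane through divalent metal transporters. In the nervous system microglia are among the cells that load iron with age and in degeneration.

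Library totals ran from 12553570 to 22854628 counts. The summed level of the 10 microglial markers was 10887 to 15869 CPM (counts scaled to a common library size, by edgeR's TMM method), against 120 to 170 for 10 border macrophage markers, and no matched marker of the 10 cell type lists was at 0 in all libraries. Other cell types varied more: neutrophil markers summed to 663, 181 and 421 CPM across NTg against 1746, 1130 and 59.6 CPM across ATXN2-Q33;TDP-43. Oligodendrocyte markers summed to 186, 1676 and 448 CPM across NTg against 360, 1172 and 170 CPM across the double mutants. Monocyte markers ran from 116 to 393 CPM and erythroid markers from 10.4 to 120 CPM, with ATXN2-Q33;TDP-43 replicate 12 lowest in both. The alignments of NTg replicates 7 and 9 carry the word combined in their names, and those of the other 4 libraries do not.

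Of these members, Fth1, Ftl1, Slc40a1 and Tfrc matched an iron-responsive element, a short RNA hairpin that binds iron regulatory proteins when cellular iron is low. In a 5′ untranslated region the bound hairpin blocks translation, and in the 3′ untranslated region of Tfrc it protects the mRNA. The elements are shown because they mark which members' RNA level is itself set by iron in textbook accounts (Tfrc) and which are controlled mainly at translation (Fth1, Ftl1). They were found on mm10 as a bulged C, 5 bases, a 6-base loop CAGTGN or CAGAGN, and 5 bases that pair with all of the first 5, with at least 4 of 5 pairs in the stem below. Each is written 5′ to 3′ on the gene's strand, with the loop in capitals.
Fth1, 5′ untranslated region, chr19:9982732-9982760, plus strand: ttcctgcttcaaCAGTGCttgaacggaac
Ftl1, 5′ untranslated region, chr7:45459779-45459807, minus strand: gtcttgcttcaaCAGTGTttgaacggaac
Slc40a1, 5′ untranslated region, chr1:45925465-45925493, minus strand: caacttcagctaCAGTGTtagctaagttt
Tfrc, 3′ untranslated region, element 1, chr16:32631160-32631188, plus strand: atttatcagtgaCAGAGTtcactataaat
Tfrc, element 2, chr16:32631219-32631247, plus strand: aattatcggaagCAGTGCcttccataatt
Tfrc, element 3, chr16:32631598-32631626, plus strand: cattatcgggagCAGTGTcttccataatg
Tfrc, element 4, chr16:32631663-32631691, plus strand: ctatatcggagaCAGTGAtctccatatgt
Tfrc, element 5, chr16:32631710-32631738, plus strand: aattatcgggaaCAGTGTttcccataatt
The same pattern matched 51 of 21901 genes with a protein-coding transcript (0.233%), and the other 6 members held none. The search asks for a perfect upper stem, so an imperfect hairpin such as the one known in Slc11a2 would be passed over.

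Hebp1 encodes a small cytosolic protein that binds heme and other tetrapyrroles, and a peptide cut from its amino-terminal end attracts leukocytes through a formyl peptide receptor. It lies on chromosome 6 (135137522 to 135198022, minus strand, mm10) and is the only member on that chromosome. Hebp1 measured 20.1, 19.8 and 18.3 CPM across NTg replicates 7, 9 and 11, against 32.2, 29.1 and 38.9 CPM across ATXN2-Q33;TDP-43 replicates 8, 10 and 12. The lowest mutant library was above the highest NTg library, and the NTg libraries lay close together. The means were 19.4 ± 0.949 CPM (SD, n = 3) and 33.4 ± 5.01 CPM (SD, n = 3), 72.1% higher in double mutants, and the fitted log2 fold change was 0.79 (SE 0.13, 95% interval 0.48 to 1.09). Behind these levels were 250, 300 and 404 counts for NTg, against 434, 429 and 749 for the double mutants.

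**Figure D1:**
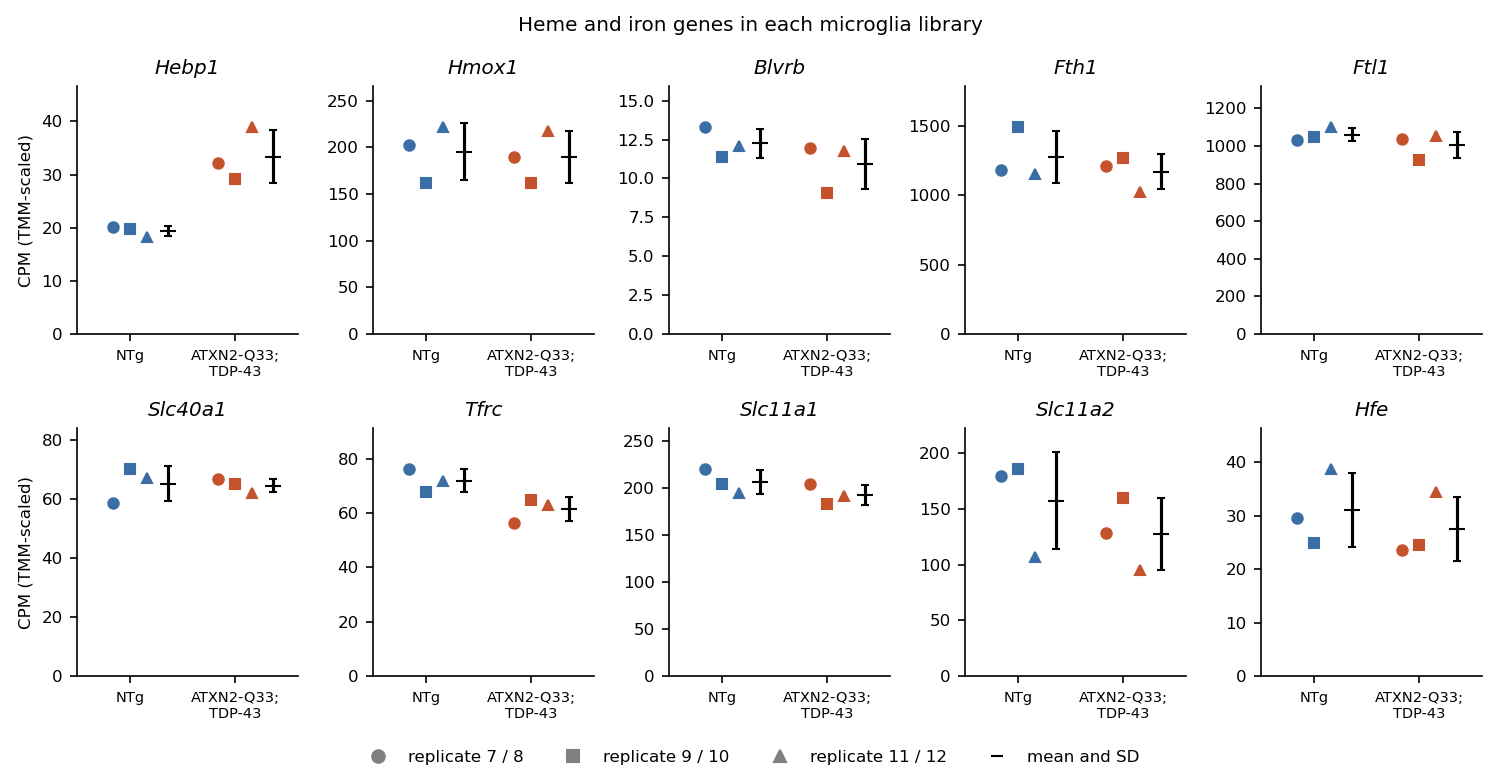
Level of each of the 10 members in every library, in CPM on linear axes that start at 0, with NTg in blue and ATXN2-Q33;TDP-43 in orange. Symbols tell the libraries apart and the black bar is the mean with its SD (n = 3). The groups are apart for Hebp1 and, by a small gap, for Tfrc, and they overlap for the other 8.

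In bulk RNA of bead-captured cells, fewer cells of a type and less RNA per cell cannot be told apart. Per 1000 CPM of microglial markers, Hebp1 stood at 1.49, 1.63 and 1.19 CPM in NTg against 2.40, 2.67 and 2.45 CPM in double mutants. The microglial sums themselves overlapped between groups (13526, 12133 and 15457 CPM in NTg against 13403, 10887 and 15869 CPM in double mutants). This scaling could therefore change the Hebp1 difference little, and it does not address Hebp1 RNA from other cell types. ATXN2-Q33;TDP-43 replicate 12, with the lowest neutrophil, monocyte, erythroid and oligodendrocyte sums of all 6 libraries, had the highest Hebp1 level. Its ependymal and astrocyte sums were instead the second highest. Ependymal markers summed to 13.9, 26.2 and 19.1 CPM in NTg against 22.4, 75.5 and 38.6 CPM in double mutants, with 7 of 7 tested markers at a positive log2 fold change and a median of 1.10. Astrocyte markers summed to 108, 123 and 128 CPM in NTg against 114, 200 and 157 CPM in double mutants, with 8 of 9 tested markers positive. Such signs were not particular to these lists. All tested neutrophil (10 of 10), monocyte (9 of 9) and erythroid markers (7 of 7) were positive, with medians of 1.22, 0.97 and 0.73. Positive too were 7 of 9 oligodendrocyte, 7 of 9 neuron, 7 of 10 endothelial, 5 of 9 border macrophage and 3 of 10 microglial markers. The ependymal and astrocyte sums overlapped between groups. Over the 6 libraries Pearson's r of Hebp1 with the ependymal sum was 0.567 (exact permutation p = 0.254, adjusted p = 0.748 over 100 relations of members and marker lists). With the astrocyte sum it was 0.475 (exact permutation p = 0.3625, adjusted p = 0.818). Without the 2 libraries farthest from each sum's median these were 0.701 and -0.396. The part of these cells in the Hebp1 result was not tested. Leaving out each library in turn kept the log2 fold change of Hebp1 between 0.66 and 0.88. Entering the combined alignments as a covariate gave 0.87 (SE 0.20). NTg replicate 11, the NTg library without that mark, had the lowest Hebp1 level of all.

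With edgeR's quasi-likelihood test and Benjamini-Hochberg adjustment over 16248 genes, 0 genes passed an adjusted p of 0.05 (0.0% of those tested), so 0 of the 10 members did. At an unadjusted p of 0.05 the count was 368 genes (2.26%), 2 of them members, Hebp1 and Tfrc. DESeq2 called 7 genes of 16233 with an adjusted p (0.0431%), and Hebp1 was the 1 member among them. As the group was drawn up around that small p, nothing is read from these counts. The groups' libraries did not overlap for 2 of the 10 members, Hebp1 upward and Tfrc downward, against 6.85% of all tested genes in either direction, 3.27% upward and 3.58% downward. Of the 10 log2 fold changes 1 was positive, and their median was -0.11, while 52.0% of all tested genes had a positive value and their median was 0.01. Among tested genes with a mean of at least 10 CPM, as all 10 members have, 46.2% were positive and the median was -0.01. The intervals of the other 9 members lay between -0.96 and 0.36 on the log2 scale.

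**Figure D2:**
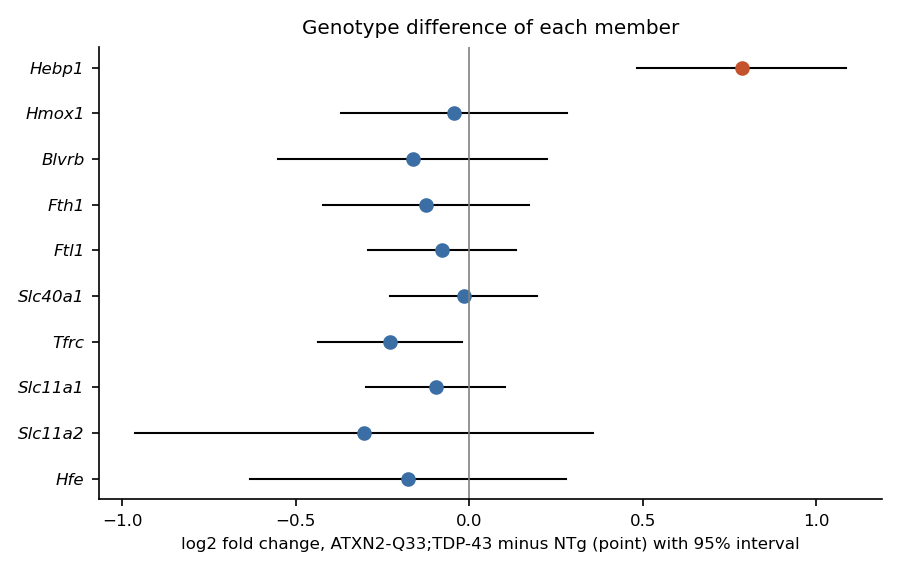
Fitted log2 fold change of each member, ATXN2-Q33;TDP-43 minus NTg, with its 95% interval from edgeR's fit (3 libraries per group). Hebp1 stands at 0.79 and the other 9 points lie between -0.30 and -0.02, with intervals that hold 0 except that of Tfrc.

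Around Hebp1, 11 other tested protein-coding genes start within 500 kb, and their log2 fold changes were positive for 6 and negative for 5, with a median of 0.02. The nearest, Fam234b, overlaps the 5′ end of Hebp1 on the opposite strand and was counted apart from it. Fam234b had 17.6, 14.8 and 15.7 CPM in NTg against 14.9, 15.1 and 16.6 CPM in double mutants, for a log2 fold change of -0.04 (SE 0.14). On the other side Gprc5a, an orphan G protein-coupled receptor 52.8 kb away, had under 2 CPM in every library and a log2 fold change of 0.50 (SE 0.60). Of the 11 neighbours, Emp1, a membrane protein gene 165 kb away, was the 1 whose groups did not overlap, against 6.85% of all tested genes. Emp1 stood at 4.19, 5.93 and 5.08 CPM in NTg against 17.1, 25.3 and 7.06 CPM in double mutants, for a log2 fold change of 1.70 (SE 0.44). The order of the mutant libraries differed between the genes, since replicate 12 was lowest for Emp1 and highest for Hebp1.

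**Figure D3:**
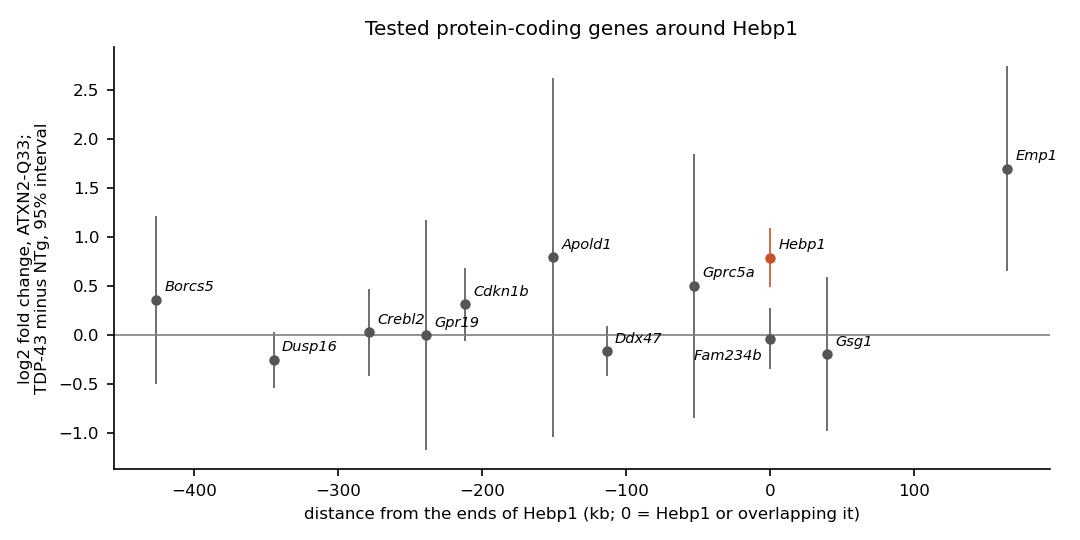
Log2 fold change, ATXN2-Q33;TDP-43 minus NTg, with 95% interval, of tested protein-coding genes against their distance in kb from the ends of Hebp1 (orange). Hebp1 and Emp1 are the genes whose interval lies above 0; Fam234b, at distance 0, stands at -0.04.

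Across the 6 libraries, the log2 CPM of Hebp1 was compared with that of 7694 protein-coding genes with a mean of at least 10 CPM. Pearson's r was 0.9 or more for 11 of them, and the highest were Zfp954 (0.975), Trip4 (0.950), Hnrnph3 (0.934), Snx20 (0.933) and Syk (0.928), across 6 libraries that share the group difference of Hebp1. Their own genotype differences were smaller: the log2 fold change was 0.24 (SE 0.15) for Zfp954, a zinc finger gene, and 0.11 (SE 0.08) for Syk, the kinase behind many activating myeloid receptors. Among the other members r with Hebp1 ran from -0.78 for Tfrc to 0.05 for Hmox1.

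Hmox1 encodes the inducible heme oxygenase and lies on chromosome 8 (75093621 to 75100589, plus strand). Its level was 203, 162 and 222 CPM in NTg against 189, 162 and 218 CPM in double mutants. The ranges of the groups nearly coincided, with means of 195 ± 30.3 and 190 ± 28.0 CPM (SD, n = 3 each) and a log2 fold change of -0.04 (95% interval -0.37 to 0.28). The sign was not stable: the value was 0.061 without NTg replicate 11 and 0.058 without ATXN2-Q33;TDP-43 replicate 10. Within each group Hmox1 followed the order of the summed microglial markers. Over the 6 libraries Pearson's r between them was 0.951 (exact permutation p = 0.00833, adjusted p = 0.278 over 100 relations of members and marker lists) and Spearman's rho was 0.943 (exact permutation p = 0.0167, adjusted p = 0.417). Without ATXN2-Q33;TDP-43 replicates 10 and 12, the libraries farthest from the median of the marker sum, r was 0.955. The relation did not pass after adjustment, which no single relation over 6 libraries could on its own. Also, 3 libraries per group are too few for a value within each. The permutation treats the 6 libraries as interchangeable. Those with neighbouring sample codes, which the labels do not name as pairs, had like Hmox1 levels (203 and 189, 162 and 162, 222 and 218 CPM). With a block of these codes the SE of its log2 fold change was 0.056, against 0.14 without. The p-values of these relations may therefore be too small. Hmox1 ran against the endothelial sum too (r -0.942, exact permutation p = 0.0194, adjusted p = 0.293). With the oligodendrocyte sum r was -0.844 (exact permutation p = 0.0444, adjusted p = 0.370). Without NTg replicate 9 and ATXN2-Q33;TDP-43 replicate 10 these were -0.596 and -0.067. With the monocyte sum rho was -0.886 (exact permutation p = 0.0333, adjusted p = 0.417). These relations cannot be told apart.

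Hmox2, the constitutive heme oxygenase, was present at a lower level, 58.3 ± 10.2 CPM in NTg against 55.5 ± 9.24 CPM in double mutants (SD, n = 3 each). Blvrb, biliverdin reductase B (chromosome 7, 27447978 to 27466144, plus strand), had 13.3, 11.4 and 12.1 CPM in NTg against 11.9, 9.09 and 11.8 CPM in double mutants. These groups overlapped, and the log2 fold change of Blvrb was -0.16 (95% interval -0.55 to 0.23). Blvrb ran against the ependymal sum (Pearson's r -0.932, exact permutation p = 0.00972, adjusted p = 0.278). It also ran against the astrocyte sum (r -0.882, exact permutation p = 0.0236, adjusted p = 0.293) and the endothelial sum (r -0.779, exact permutation p = 0.0153, adjusted p = 0.293). Without the 2 libraries farthest from each sum's median these were -0.421, -0.716 and -0.363. Blvra, biliverdin reductase A and the partner of Blvrb, stood at 9.56 ± 1.58 and 9.37 ± 1.48 CPM (SD, n = 3 each). Hebp2, the relative of Hebp1, was close to absent, with 13 counts over all 6 libraries, too few to be tested. The libraries of the groups overlapped for all 4 heme oxygenase and reductase genes.

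**Figure D4:**
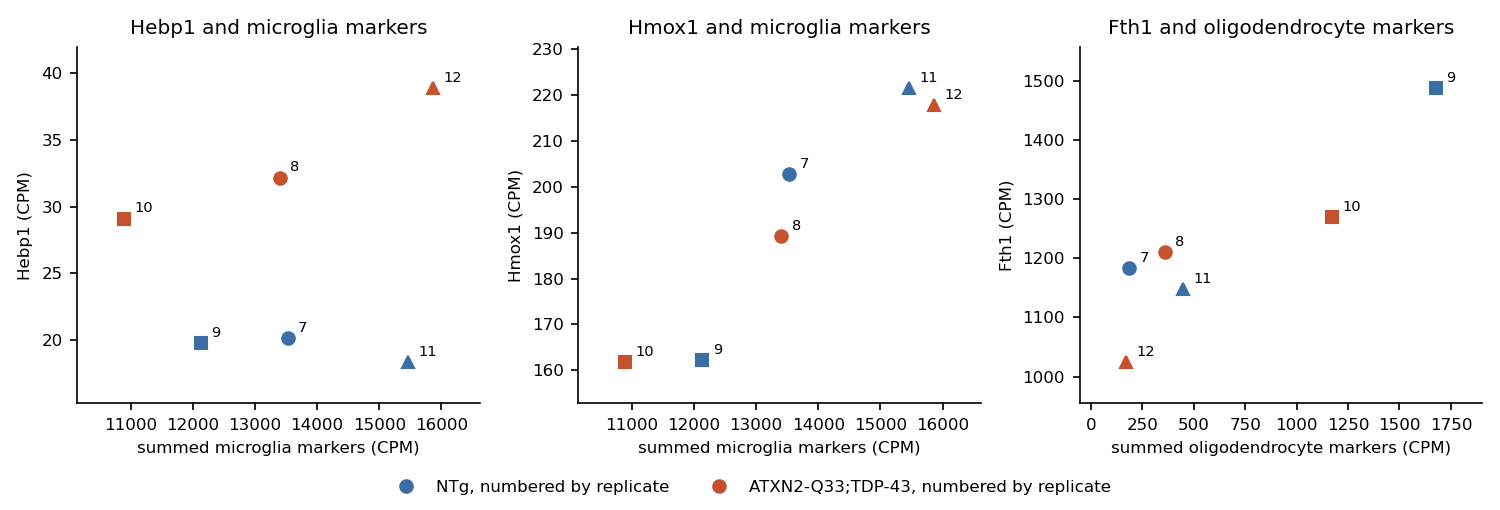
Level of Hebp1 and Hmox1 against summed microglial markers and of Fth1 against summed oligodendrocyte markers, all in CPM; each point is 1 library, labelled with its number, NTg in blue and ATXN2-Q33;TDP-43 in orange. Hebp1 splits by genotype, which its selection on a small p-value in these libraries and its groups without overlap fix in advance. Hmox1 lines up with the microglial sum in both groups, and the top 2 Fth1 values are the libraries with the top 2 oligodendrocyte sums.

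Ferritin is built from heavy chains, which oxidize iron for storage, and light chains, which help the mineral core to form. Fth1, the heavy chain (chromosome 19, 9980598 to 9985098, plus strand), had 1183, 1487 and 1148 CPM in NTg against 1210, 1269 and 1024 CPM in double mutants. The groups overlapped widely, and the log2 fold change was -0.12 (95% interval -0.42 to 0.17). Ftl1, the light chain (chromosome 7, 45457944 to 45459884, minus strand), had 1032, 1049 and 1099 CPM in NTg against 1035, 924 and 1054 CPM in double mutants, with a log2 fold change of -0.08 (95% interval -0.29 to 0.14). Ftl1 had the lowest coefficient of variation of the members in NTg, 3.26%, while in double mutants its 6.98% was above the 3.55% of Slc40a1 and the 5.56% of Slc11a1. Both ferritin genes have processed pseudogenes, and reads with several alignments were not counted, so their levels may be under-counted. Fragments in Ftl1 exons that also fall in Gm22133, an annotated miRNA on the same strand, were counted for both genes, and that gene held 5413 to 9971 counts per library.

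The balance of the chains differed between libraries more than between genotypes. There were 1.15, 1.42 and 1.04 Fth1 counts per Ftl1 count in NTg and 1.17, 1.37 and 0.972 in double mutants. NTg replicate 9 and ATXN2-Q33;TDP-43 replicate 10, the highest of each group, were also the libraries with the highest oligodendrocyte marker sums. For Fth1 and that sum Pearson's r was 0.862 (exact permutation p = 0.0111, adjusted p = 0.278 over 100 relations) and Spearman's rho was 0.829 (exact permutation p = 0.0583, adjusted p = 0.449), and without those 2 libraries r was 0.529, so the relation rests on them. Fth1 also ran against the microglial marker sum, with Pearson's r of -0.754 (exact permutation p = 0.0736, adjusted p = 0.441), -0.853 without ATXN2-Q33;TDP-43 replicates 10 and 12, and Spearman's rho of -0.943 (exact permutation p = 0.0167, adjusted p = 0.417). With the endothelial marker sum r was 0.823 (exact permutation p = 0.0208, adjusted p = 0.293), 0.664 without NTg replicate 9 and ATXN2-Q33;TDP-43 replicate 10, and rho was 0.886 (exact permutation p = 0.0333, adjusted p = 0.417). The smallest adjusted p of the 100 relations by exact permutation was 0.278, so none passed. Even a perfect rank order over 6 libraries, Slc11a1 with the astrocyte sum (rho -1, exact permutation p = 0.00278), had that adjusted p. A single relation, however strong, could therefore not pass on its own. The limit of the permutation given for Hmox1 holds for these relations too. Without NTg replicate 9 the log2 fold change of Fth1 was 0.0009 (SE 0.13). Ftmt, mitochondrial ferritin, had 0 counts in every library, which allows a level of up to 0.136 to 0.242 CPM (3 counts per library, counting error only). Ncoa4, the receptor that delivers ferritin to autophagy, stood at 66.3 ± 9.03 CPM in NTg against 64.1 ± 8.98 CPM in double mutants (SD, n = 3 each).

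Slc40a1 encodes ferroportin, the exporter of cellular iron (chromosome 1, 45908068 to 45926523, minus strand). Its level was 58.5, 70.0 and 66.9 CPM in NTg against 66.5, 64.9 and 62.0 CPM in double mutants. All mutant values lay inside the NTg range, and the log2 fold change of -0.02 had a 95% interval of -0.23 to 0.20. Its sign turned, to at most 0.037, on leaving out NTg replicate 9, NTg replicate 11 or, among mutants, replicate 12. Hamp, whose hormone hepcidin closes ferroportin, had 8 counts in all libraries together.

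Tfrc, the transferrin receptor (chromosome 16, 32608920 to 32632794, plus strand) and the gene with 5 elements shown above, was the other member whose groups were apart. It had 76.1, 67.7 and 71.9 CPM in NTg against 56.4, 64.9 and 62.8 CPM in double mutants, so the gap between the nearest libraries, NTg replicate 9 and ATXN2-Q33;TDP-43 replicate 10, was small. The means were 71.9 ± 4.19 and 61.4 ± 4.46 CPM (SD, n = 3 each), and the log2 fold change was -0.23 (SE 0.09, 95% interval -0.43 to -0.02). It did not pass after adjustment (edgeR adjusted p = 0.9996), its size with a library left out was -0.27 to -0.17, and groups apart in the lower direction occurred in 3.58% of tested genes. The members with an element in the 5′ untranslated region had log2 fold changes of -0.12 (Fth1), -0.08 (Ftl1) and -0.02 (Slc40a1). The RNAs of the iron regulatory proteins that bind these hairpins had log2 fold changes of 0.07 (SE 0.16) for Aco1 and 0.01 (SE 0.10) for Ireb2. Tfr2, the second transferrin receptor, had 3 counts in all.

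Slc11a1 (NRAMP1), which moves metal out of phagosomes, and Slc11a2 (DMT1), which moves iron out of endosomes, showed unlike spreads. Slc11a1 (chromosome 1, 74375195 to 74386062, plus strand) had 220, 204 and 195 CPM in NTg against 204, 183 and 192 CPM in double mutants, for a log2 fold change of -0.10 (95% interval -0.30 to 0.10). Slc11a2 (chromosome 15, 100387898 to 100425072, minus strand) had 179, 186 and 107 CPM in NTg against 128, 159 and 94.8 CPM in double mutants. The lowest library of each group was the deepest one, NTg replicate 11 and ATXN2-Q33;TDP-43 replicate 12, and the coefficients of variation of Slc11a2 were 27.7% and 25.4%, the widest of the members. Its log2 fold change was -0.30 (95% interval -0.96 to 0.36) and turned to 0.25 (SE 0.27) once a covariate stood for the combined alignments, which leaves NTg replicate 11 as the NTg library without the mark. With a block of neighbouring sample codes, which the labels do not name as pairs, it was -0.29 (SE 0.07, edgeR adjusted p = 0.0723), and the mutant library was the lower one in each such pair. The SEs of the other members were smaller with that block too. Slc7a11, the cystine transporter, also had its lowest values in NTg replicate 11 and ATXN2-Q33;TDP-43 replicate 12. Its level was 46.3, 47.0 and 22.5 CPM in NTg against 42.0, 48.7 and 20.7 CPM in double mutants. The part of depth and of library handling in these values was not tested.

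Hfe (chromosome 13, 23702034 to 23710854, minus strand) encodes an MHC class I-like protein that binds the transferrin receptor and takes part in iron sensing. It had 29.6, 25.0 and 38.7 CPM in NTg against 23.5, 24.6 and 34.4 CPM in double mutants. The groups overlapped, the highest library of each was the deepest one, and the log2 fold change was -0.18 (95% interval -0.63 to 0.28). Without NTg replicate 11 the value was 0.021, and a covariate for the combined alignments moved it to -0.49 (SE 0.23).

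Levels of different genes were compared per length, as FPKM, the count scaled to library size and to the summed length of all exons of a gene. In NTg the order was Ftl1 (791 ± 25.8 FPKM), Fth1 (367 ± 53.8), Hmox1 (112 ± 17.3), Slc11a1 (55.7 ± 3.43), Slc11a2 (24.8 ± 6.87), Tfrc (11.6 ± 0.678), Hfe (8.70 ± 1.96), Slc40a1 (7.23 ± 0.661), Hebp1 (5.23 ± 0.256) and Blvrb (4.40 ± 0.345; SD, n = 3 for each). Neighbours in that order were apart by more than their SDs except Hfe and Slc40a1. In the mutants Hebp1 stood at 9.00 ± 1.35 FPKM, above Slc40a1 at 7.16 ± 0.254 FPKM and within the spread of Hfe at 7.70 ± 1.67 FPKM. The order depended on the length used: over the principal transcript alone, Fth1 (1370 ± 201 FPKM in NTg) was above Ftl1 (1095 ± 35.7), and Hebp1 (18.3 ± 0.897) reached Slc40a1 (19.3 ± 1.77) and passed Tfrc (14.7 ± 0.857).

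The 300-base RefSeq promoter windows (GRCm38.p6, 250 bases before to 50 after the start) covered 7 of the members. The antioxidant response element core TGACNNNGC, read on both strands, was in 12.4% of 32851 windows and in 1 member, Hfe. The E-box CACGTG was in 7.15% of windows and in 1 member, Hebp1. Enhancers outside these windows, such as the distal ones known for Hmox1, were not searched.

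The wider pathways were described from 8 gene lists. In each of them 0 tested genes passed edgeR's adjusted p of 0.05 in either direction, and only Hebp1 passed with DESeq2. Of the 11 genes of heme synthesis all were tested, 7 had a positive log2 fold change and the median was 0.04. That sign was not stable: with the combined alignments as a covariate 5 were positive and the median was -0.08. With a library left out the median ran from -0.04 to 0.16. Alas1, the rate-limiting enzyme in most cells, had 109 ± 2.73 CPM in NTg against 105 ± 3.68 CPM in double mutants (SD, n = 3 each). Clpx, a mitochondrial unfoldase that acts on that enzyme, had the smallest p-value of the list, with a log2 fold change of 0.26 (SE 0.14).

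Heme uptake, binding, transport and degradation had 17 of 19 genes tested, 7 of them positive, with a median of -0.04. Hp, the hemoglobin-binding haptoglobin, was at 1.11 (SE 1.14), and its mutant libraries ran from 0.883 to 28.0 CPM in the order of the neutrophil marker sum. Pgrmc2, a heme chaperone, was at -0.13 (SE 0.15). Iron uptake had 13 of 20 genes tested and 4 positive, with a median of -0.10. In that list the metal transporter Slc39a14 was at -0.22 (SE 0.16) and the lipocalin receptor Slc22a17 at -0.21 (SE 0.16). Storage, chaperones and export had 8 of 11 tested and 2 positive, with a median of -0.03, where Cp, the ferroxidase ceruloplasmin, was at 0.44 (SE 0.49) and Pcbp3 at -0.14 (SE 0.30).

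Iron sensing and the hepcidin axis had 9 of 15 genes tested and 5 positive, with a median of 0.01. Cisd2, an iron-sulfur protein of the endoplasmic reticulum and mitochondria, had 37.6, 43.5 and 40.9 CPM in NTg against 30.2, 37.3 and 30.7 CPM in double mutants. These groups were apart by a small gap, and the log2 fold change of Cisd2 was -0.32 (SE 0.12), which did not pass after adjustment. Bola2, a partner in iron-sulfur transfer, was at 0.19 (SE 0.19). Iron-sulfur cluster assembly had 25 of 25 tested and 9 positive, with a median of -0.06, and its ferredoxin Fdx1 was at -0.47 (SE 0.30) and its chaperone Hspa9 at -0.13 (SE 0.09). Ferroptosis control had 16 of 17 tested and 6 positive, with a median of -0.07, where the channel Vdac2 was at -0.21 (SE 0.09) and the lipoxygenase Alox15 at 1.13 (SE 0.63).

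The regulators NRF2 and BACH1, which switch Hmox1, ferritin and antioxidant genes on and off, headed a list of 27 genes with 26 tested. Of these 22 had a negative log2 fold change and 4 a positive one, with a median of -0.09 and 4 of the 10 members (Hmox1, Blvrb, Fth1 and Ftl1) among the negative. Prdx1, a peroxide-removing enzyme, had 89.3, 86.6 and 86.6 CPM in NTg against 75.8, 76.1 and 79.7 CPM in double mutants, for a log2 fold change of -0.18 (SE 0.08). Gclc, the catalytic subunit of glutathione's first enzyme, was at -0.18 (SE 0.08), and the regulators were at -0.15 (SE 0.10) for Nfe2l2 and -0.15 (SE 0.10) for Bach1. The count of positive genes was 4 to 6 over the other normalizations and tests and 3 to 8 with a library left out, but 15 of 26, with a median of 0.02, once the combined alignments were a covariate. The split of this list therefore depends on whether the combined alignments of NTg replicates 7 and 9 are modelled. That mark occurs in NTg libraries alone, so the covariate leaves NTg replicate 11 as the only NTg library set against the mutants.

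**Figure D5:**
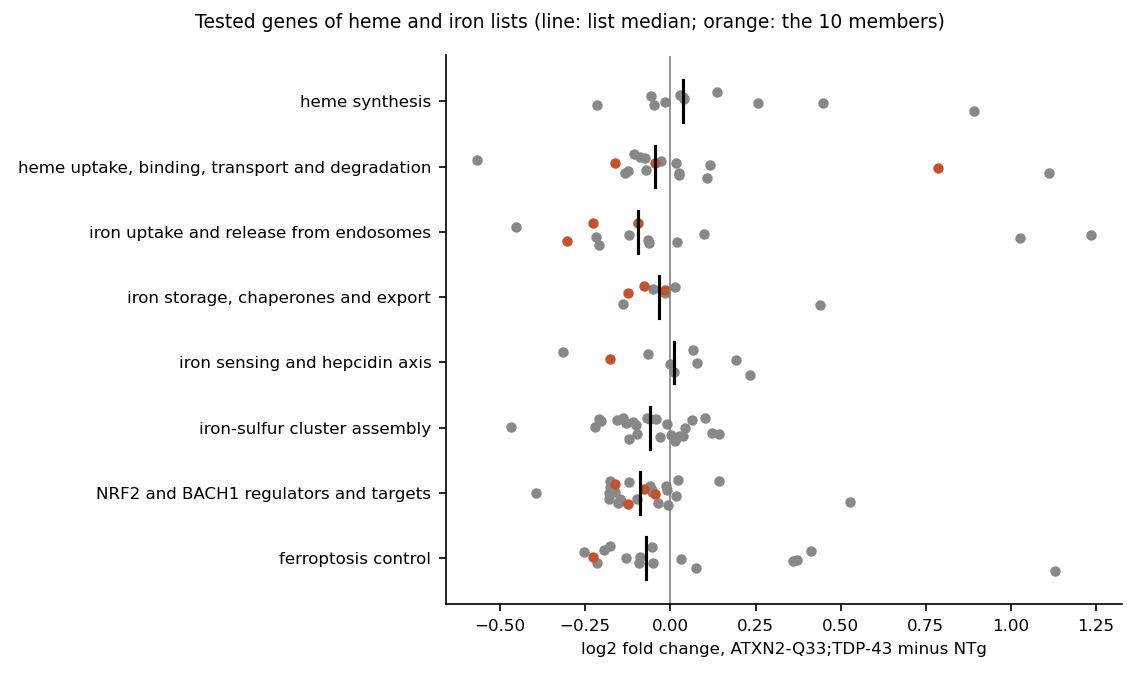
Log2 fold change, ATXN2-Q33;TDP-43 minus NTg, of each tested gene of the 8 heme and iron lists (a gene can be in several). The black line is the list's median, between -0.10 and 0.04, and the members are in orange, of which Hebp1 is the 1 to the right of 0.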

How the data were processed

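Counts per gene were used as deposited: per the file headers, the authors counted paired fragments once with featureCounts 1.6.1 on strand setting 2, leaving out chimeric pairs and counting a fragment for every gene it overlaps, and the exon lengths came with them. Trimming with Trim Galore 0.4.1 and alignment to mm10 by TopHat2 are recorded per the submitters' processing notes. Symbols matched 55141 of 55401 genes. The table's 6 columns of other samples were not used. Library pairs differed beyond sampling noise (chi-square per degree of freedom 6.10 to 33.6).

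Genes were filtered with filterByExpr (minimum count 10) and compared by edgeR 4.0.16 under R 4.3.3 (robust quasi-likelihood test, TMM scaling, no covariate). DESeq2 1.42.0, which gave no adjusted p for 15 genes, and limma 3.58.1 were alternatives. CPM and FPKM were computed from the counts. Marker sums add the CPM of every listed gene. Hairpins and principal transcripts came from GENCODE vM21 on the same assembly.

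The members and lists were chosen with earlier results of these data known. Named genes are the members, their relatives, the 2 non-members of each list with the smallest p, the 5 genes most like Hebp1 (log2 CPM with a pseudocount of 0.5) and its nearest neighbours. A gene that this rule names is not reported here. Emp1, Slc7a11, Gm22133, Hp's library values, and the other regulators and transporters given beside the members were named after their values were seen. Principal transcript lengths and the recount of each list under every alternative were also added then.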

Additional observations from a re-analysis of the deposited data

How the results depend on the processing

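Under the alternatives to the genotype fit, the count of genes past the threshold was 7 with DESeq2, 6 with no filter on low counts and 71 with a replicate block of neighbouring sample codes, which the labels do not name as pairs. The count of members past it was 1 under each of these, and that member was Hebp1. The log2 fold change of Hebp1 was then 0.79, 0.78 and 0.78 and passed the threshold (adjusted p = 0.0127 with DESeq2, 0.0122 without the filter and 0.00688 with the block, the last 2 from edgeR). Hebp1 was selected on its small p-value in these same libraries, so these adjusted p-values are no support for its difference. With limma voom, other size factors, a stricter filter, mitochondrial genes left out or an adjusted p of 0.1, both counts were 0. With a library left out, genes past the threshold numbered 0 to 2, the 2 without ATXN2-Q33;TDP-43 replicate 12, members with a positive fold change numbered 1 to 4, and Hebp1 ran from 0.66 to 0.88. With the combined alignments as a covariate, which leaves NTg replicate 11 as the only NTg library set against the mutants, 3 members were positive. List medians near 0 changed sign too. With a library left out they ran from -0.11 to 0.01 for heme uptake and from -0.04 to 0.07 for iron sensing. Under the stricter filter the median of iron-sulfur cluster assembly was 0.01.

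Of 135 values of the other 9 members, 9 changed sign. With a library left out the log2 fold change ran from -0.19 to 0.0009 for Fth1 (the last without NTg replicate 9), from -0.16 to 0.061 for Hmox1 (above 0 without NTg replicate 11 and, at 0.058, without ATXN2-Q33;TDP-43 replicate 10) and from -0.37 to 0.021 for Hfe (above 0 without NTg replicate 11). That of Slc40a1 ran from -0.0875 to 0.037, above 0 without NTg replicate 9, NTg replicate 11 (0.0075) and ATXN2-Q33;TDP-43 replicate 12 (0.012). With the covariate Fth1 was 0.024 and Slc11a2 was 0.25. With the block of neighbouring sample codes the SE of every member was smaller than in the main fit. Fth1 was then -0.12 (SE 0.054, edgeR unadjusted p = 0.0397, adjusted p = 0.530). Tfrc was -0.23 (SE 0.075, edgeR unadjusted p = 0.00823, adjusted p = 0.298). The cause was not tested. With 3 pools per group, the median 95% interval over tested genes reached 0.49 on the log2 scale to either side, and the members' own ran from 0.20 for Slc11a1 to 0.66 for Slc11a2.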
